A study of Rattus norvegicus with 10 samples.

Results

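The genes described here encode the Rab GTPases, and they were taken by their symbols, as every gene symbol of the count table made of Rab, a number and at most a letter and a digit. That rule found 55 genes among 17168, and it leaves out Rab effectors, Rab-like proteins and binding partners. All animals were female TgF344-AD rats, a transgenic line used as a model of Alzheimer's disease, and the tissue was the left hippocampus. Untreated animals (n = 5) ate rodent chow, and treated animals (n = 5) ate chow with 750 mg of RG2833 per kg for 6 months from 5 months of age. RG2833 inhibits the histone deacetylases HDAC1 and HDAC3. Both groups carried the transgenes and were killed at 11 months, so the comparison is of drug against no drug within transgenic females. A food dye told the feeds apart, and the labels do not say whether the untreated chow held it.

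Rab proteins are small GTPases that give membrane compartments their identity. Each cycles between a GTP-bound form on its membrane, where it recruits tethers, motors and sorting proteins, and a GDP-bound form that a GDP dissociation inhibitor keeps in the cytosol. Exchange factors switch a Rab on, GTPase-activating proteins switch it off, and a geranylgeranyl group added by the enzyme Rab geranylgeranyl transferase anchors it. In hippocampal neurons Rab proteins serve synaptic vesicle release, receptor recycling at dendrites and transport of endosomes and lysosomes along axons.

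Expression was measured as estimated counts per gene, scaled here to CPM, the library-size unit, with TMM factors that correct for differences in library composition. Library totals were 8764245 to 11131402 counts in untreated and 9535060 to 11311652 in RG2833 animals. Ribosomal RNA loci took 2.70 to 5.36% of the counts in untreated and 1.13 to 1.96% in RG2833 animals, so this share separated the groups, and its part in the results below was not tested beyond the fit with it as a covariate. The summed level of 10 excitatory neuron markers was 5262 to 7165 CPM in untreated and 7256 to 7987 CPM in RG2833 animals, with none of the 10 at 0 and 1 of them (Camk2a) called higher. That of 8 inhibitory neuron markers was 481 to 856 CPM in untreated and 492 to 666 CPM in RG2833 animals, with none of them called. The summed level of 8 choroid plexus markers was 2453 CPM in untreated replicate 1 and 8.54 to 49.8 CPM in the other 9 animals, with 4 of the 8 tested and 1 (Prlr) called lower. That of 8 microglia markers was 497 to 787 CPM in untreated and 492 to 618 CPM in RG2833 animals, with 1 (Aif1) called lower. In whole tissue, fewer cells of a type and less RNA per cell cannot be told apart.

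Of the 55 Rab genes, 52 passed the filter on low counts. Rab17 and Rab25, known mainly from epithelial cells, had 0 counts in all 10 animals, and Rab19 had at most 3 counts in any animal. For a count of 0 the upper limit used here is 3 counts, which corresponds to 0.265 to 0.342 CPM and covers counting error only. Rab19 had 1 to 3 counts in 6 of the 10 animals and 9 counts in all, too few for a comparison.

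RG2833 animals had higher levels of Rab8b and Rab15 and a lower level of Rab26. These 3 genes reached the threshold of 0.05 for the Benjamini-Hochberg adjusted p over 11791 genes, by the quasi-likelihood test of edgeR, and are referred to as called. They made up 5.77% of the 52 tested Rab genes, against 5.08% called among all tested genes. By direction, 2 of 52 were called higher (2.41% of all tested genes were) and 1 of 52 was called lower (2.67% of all tested genes were). At an unadjusted p under 0.05, 15 of the 52 passed, 9 higher and 6 lower, which is 28.8% of them against 24.5% of all tested genes. By direction, 17.3% of the Rab genes passed as higher (11.8% of all tested genes did) and 11.5% as lower (12.7% did). The values of the 2 groups did not overlap for 5 of the 52 (9.62%), against 7.27% of all tested genes. The share of Rab genes called at the adjusted threshold was near the background.

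Most Rab genes differed little. The log2 fold changes ran from -0.72 to 0.76, with a median of 0.02 against -0.003 for all tested genes. The median size of the change was 0.15 (log2) for Rab genes and 0.16 for all tested genes, and 41 of the 52 lay within 0.25 of zero. Positive values were found in 28 Rab genes (53.8%, against 49.4% of all tested genes) and negative values in 24. The summed level of the 52 genes was 6386 to 7356 CPM in untreated and 7137 to 7740.4 CPM in RG2833 animals, and these ranges overlap.

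**Figure D1:**
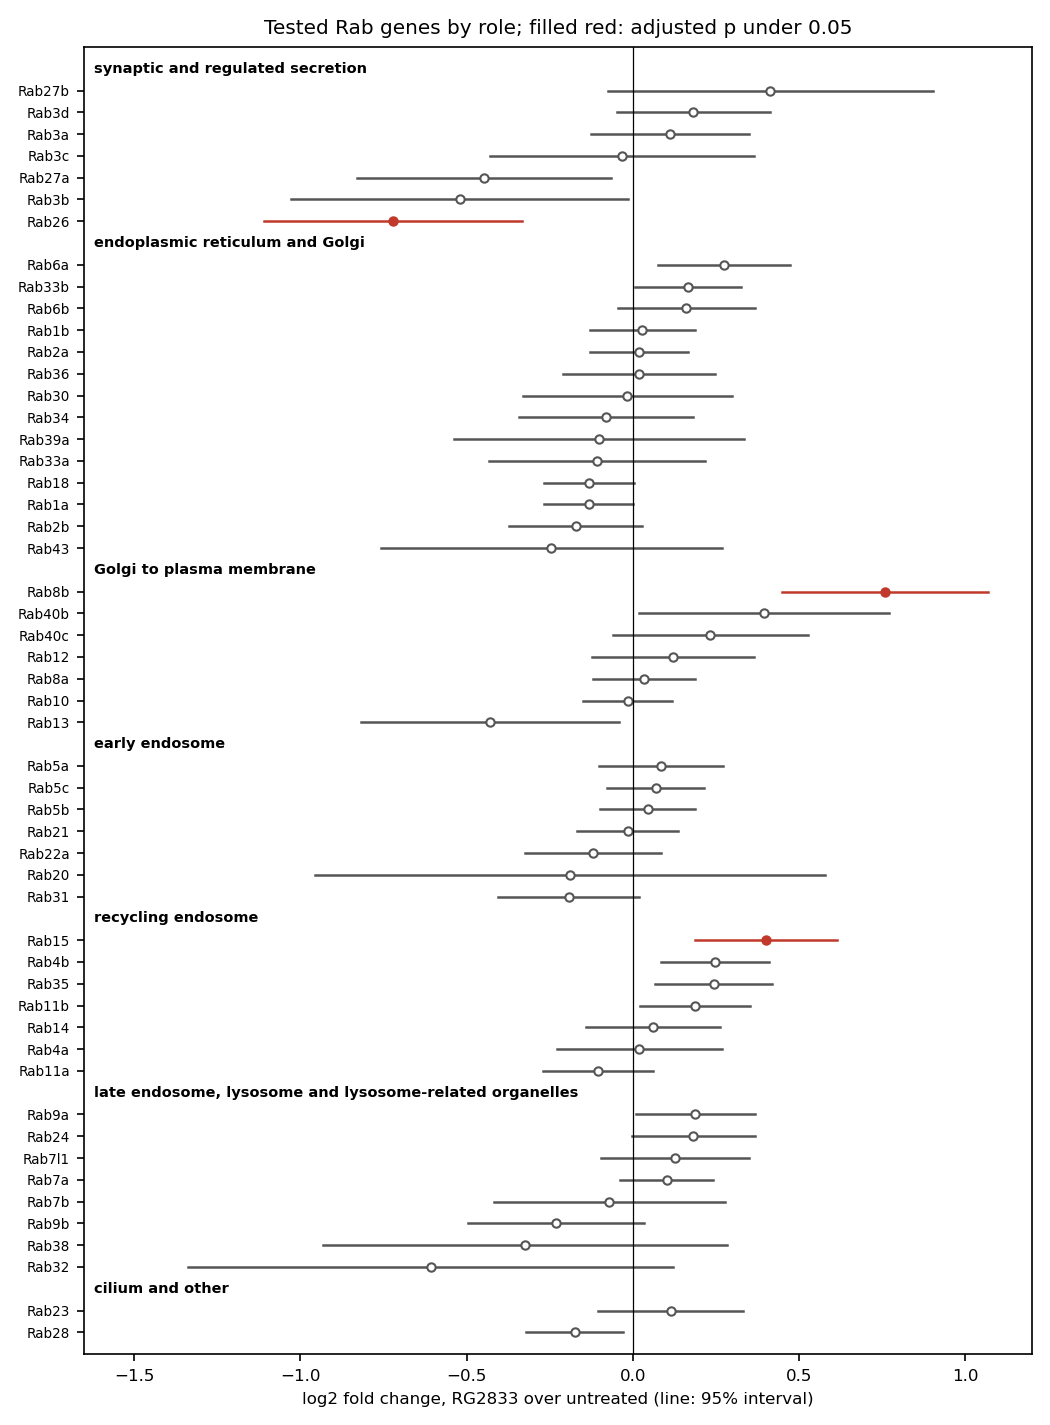
Log2 fold change of each tested Rab gene in RG2833 over untreated animals (point) with its 95% interval (line), grouped by role, n = 5 animals per group. Filled red points are the 3 called genes, Rab8b at 0.76, Rab15 at 0.40 and Rab26 at -0.72, and most other intervals cross zero.

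Rab8b and its close relative Rab8a carry vesicles from the Golgi and recycling endosomes to the plasma membrane and to the base of the cilium. The Rab8b level was 8.24, 11.1, 10.0, 12.8 and 10.6 CPM in untreated replicates 1 to 5, and 19.5, 20.9, 14.3, 15.2 and 19.6 CPM in RG2833 replicates 1 to 5. Each RG2833 value lay above each untreated value, and the nearest pair were untreated replicate 4 and RG2833 replicate 3. Rab8b rose from 10.6 ± 1.67 to 17.9 ± 2.94 CPM (SD, n = 5), a 1.69-fold difference, with a log2 fold change of 0.76 and a standard error of 0.14 (adjusted p = 0.0178 by edgeR). The call held in 6 of the 10 fits that each left out an animal. It was lost without untreated replicate 3 or RG2833 replicate 1, 2 or 5, where the highest adjusted p was 0.0565. Those fits called 98 to 130 of all genes, against 118 to 1556 in the fits that kept the call and 599 in the main fit.

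Rab8a was at nearly equal levels in both groups. Its level was 61.2, 65.4, 58.6, 53.6 and 57.3 CPM in untreated and 63.8, 60.7, 56.6, 63.9 and 57.5 CPM in RG2833 animals, and the ranges overlap almost fully. The log2 fold change of Rab8a was 0.03, with a 95% interval from -0.12 to 0.19 that lies below the interval of Rab8b, from 0.45 to 1.07 (edgeR adjusted p = 0.818 for Rab8a). The difference between the 2 genes was not itself tested.

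Rab15 acts in neurons at sorting and recycling endosomes, where internalised receptors are sent back to the surface. Its level was 231, 177, 211, 246 and 184 CPM in untreated and 278, 269, 253, 275 and 309 CPM in RG2833 animals. Again no values overlapped, and untreated replicate 4 was the highest of its group. Rab15 rose from 209.9 ± 29.6 to 277 ± 20.7 CPM (SD, n = 5), or 1.32-fold, with a log2 fold change of 0.40 and a standard error of 0.10 (adjusted p = 0.0400 by edgeR). Among the 10 fits that each left out an animal, the call held in 1, without untreated replicate 4 (edgeR adjusted p = 0.00898), and the adjusted p was at most 0.1096 in the other 9. The log2 fold change ran from 0.34 to 0.46 over these fits. Calls over all genes numbered 1556 without untreated replicate 4 and 98 to 902 in the other 9, against 599 in the main fit.

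The promoter sequences of the 2 genes called higher and of the uncalled relative Rab8a are shown so that their GC boxes and CpG content can be compared. Each stretch is the 250 bases before the RefSeq gene start in GRCr8, read 5′ to 3′ on the gene's strand, with the GC box letters GGGCGG (either strand) in capitals. The submitters' processing notes name another build, rn6, and the counts carry no coordinates. The Rab8b stretch lies at chr8:76417549-76417798, the Rab8a stretch at chr16:17709413-17709662 and the Rab15 stretch at chr6:101257084-101257333, each on the minus strand. Rab26 was not matched.
Rab8b: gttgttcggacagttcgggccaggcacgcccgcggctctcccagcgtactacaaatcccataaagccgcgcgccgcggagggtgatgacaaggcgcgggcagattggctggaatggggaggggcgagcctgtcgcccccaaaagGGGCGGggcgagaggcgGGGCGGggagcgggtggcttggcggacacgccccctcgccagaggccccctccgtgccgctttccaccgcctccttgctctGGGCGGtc
Rab8a: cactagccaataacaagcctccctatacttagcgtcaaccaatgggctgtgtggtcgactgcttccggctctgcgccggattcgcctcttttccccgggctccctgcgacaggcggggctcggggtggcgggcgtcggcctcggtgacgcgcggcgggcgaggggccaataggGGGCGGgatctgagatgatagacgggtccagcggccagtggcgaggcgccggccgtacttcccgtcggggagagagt
Rab15: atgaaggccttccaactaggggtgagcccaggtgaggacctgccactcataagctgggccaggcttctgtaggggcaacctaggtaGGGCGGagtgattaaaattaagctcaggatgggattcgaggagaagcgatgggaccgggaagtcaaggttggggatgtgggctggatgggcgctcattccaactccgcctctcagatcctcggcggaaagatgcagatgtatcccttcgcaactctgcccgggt

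The Rab8b stretch holds 3 GC boxes and 27 CpG dinucleotides, the Rab8a stretch 1 and 28, and the Rab15 stretch 1 and 10. Of the 45 Rab genes matched to the table, 42 were among the tested genes. A GC box was found in 35 of these 42 (83.3%) and in none of the 3 untested ones, in 59.0% of 8826 tested genes matched by symbol and in 30.5% of all 33469 stretches. The cAMP response element TGACGTCA, which reads the same on both strands, was found in 0 of the 42 tested Rab genes and in the untested Rab25, in 3.0% of the tested genes and in 1.6% of all stretches. The TATA box letters TATAAA (either strand) were found in 0 of the 42, and in none of the 3 untested genes, against 6.3% of the tested genes and 12.9% of all stretches. None of these motifs contains another. The CpG counts of Rab8b and Rab8a both lie above the median of 17 for Rab genes, and that of Rab15 lies below it. A match describes letters and shows no bound factor.

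Rab26 sits on secretory granules and on clusters of synaptic vesicles, which it links to the autophagy machinery. Its level was 58.6, 77.7, 81.5, 42.3 and 66.8 CPM in untreated and 41.2, 49.2, 34.6, 44.2 and 28.8 CPM in RG2833 animals. Untreated replicate 4 lay among the treated animals, and the other 4 untreated values lay above all treated ones. Rab26 fell from 65.4 ± 15.8 to 39.6 ± 8.04 CPM (SD, n = 5), to 0.606 of the untreated level, with a log2 fold change of -0.72 and a standard error of 0.18 (adjusted p = 0.0408 by edgeR). The call held in 2 of the 10 fits that left out an animal, without untreated replicate 4 or 5, and the adjusted p was at most 0.107 in the other 8. Those 2 fits called 1556 and 902 of all genes, and the other 8 called 98 to 280, against 599 in the main fit. With limma-voom the adjusted p was 0.0501. Untreated replicate 4 also had the lowest summed level of inhibitory neuron markers of the 10 animals (481 CPM), and the part of that level in the Rab26 and Rab3b values was not tested.

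Without untreated replicate 1, the animal with the high choroid plexus level, Rab8b stayed called, with a log2 fold change of 0.68. Without that animal the log2 fold changes were at least as large as with it for Rab15 (0.44, edgeR adjusted p = 0.0546) and Rab26 (-0.76, edgeR adjusted p = 0.0634), which were not called. None of the 3 calls held in the fits with a covariate. Of all 11791 tested genes, 2 were called with the ribosomal RNA share and 3 with the excitatory neuron score. When the ribosomal RNA share was added to the fit, the log2 fold changes were 0.97 for Rab8b, 0.20 for Rab15 and 0.09 for Rab26, which reversed its sign (edgeR adjusted p = 0.9999 for each). When the excitatory neuron score was added instead they were 0.47, 0.28 and -0.24 (edgeR adjusted p of 0.859 to 0.939). The ribosomal share and the summed excitatory neuron marker level each separated the groups without overlap, so neither can be told apart from the drug here. The excitatory neuron score used in the fit, a mean over the markers on the log2 scale, overlapped through untreated replicate 4 (0.26, against 0.14 to 0.39 in RG2833 animals).

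**Figure D2:**
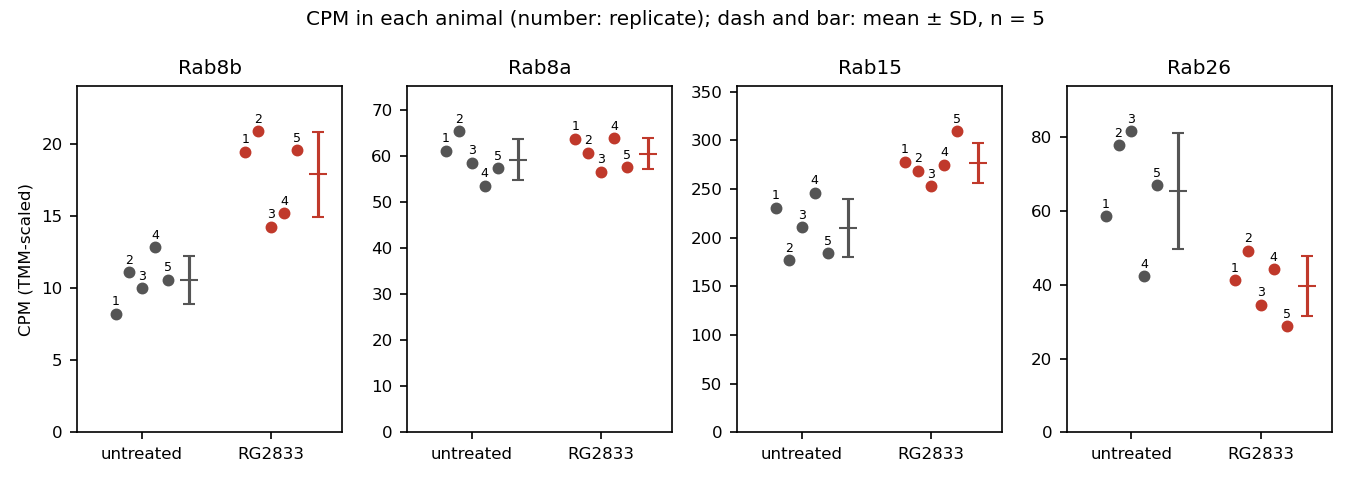
CPM of Rab8b, Rab8a, Rab15 and Rab26 in each animal (points, numbered by replicate), with mean ± SD per group (n = 5) and axes that start at 0. All Rab8b and Rab15 values of RG2833 animals lie above the untreated values, Rab8a values overlap, and untreated replicate 4 (42.3 CPM) lies among the treated animals for Rab26.

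Rab proteins of regulated secretion include the Rab3 family on synaptic vesicles and the Rab27 pair on dense-core granules and secretory lysosomes. Of the 7 tested genes of this role, Rab26 was the 1 called, where 5.08% of all tested genes were. An unadjusted p under 0.05 was found for 3 (Rab26, Rab27a and Rab3b), where 24.5% of all tested genes had one. Log2 fold changes were positive in 3 and negative in 4, with a median of -0.03. Rab3a, the most studied synaptic vesicle Rab, was at 1118, 812, 1126, 850.4 and 969 CPM in untreated and 1213, 1056, 978, 1080.4 and 938 CPM in RG2833 animals. These ranges overlap, and the log2 fold change of 0.11 had a 95% interval from -0.13 to 0.35 (edgeR adjusted p = 0.563). Rab3b, its relative in subsets of neurons and in endocrine cells, was at 50.9, 71.2, 37.5, 24.5 and 61.7 CPM in untreated and 33.3, 38.7, 37.2, 36.1 and 25.5 CPM in RG2833 animals. The untreated Rab3b values were widely spread, with replicate 4 the lowest of all 10 animals. Its log2 fold change of -0.52 with a standard error of 0.23 did not pass (edgeR adjusted p = 0.193), and it passed in 1 of the 10 fits that left out an animal, the one without untreated replicate 4 (edgeR adjusted p = 0.0209). Over those fits the log2 fold change ran from -0.69 to -0.35 and the adjusted p reached 0.389. The fit without untreated replicate 4 called 1556 of all genes, against 599 in the main fit. Rab3c and Rab3d had log2 fold changes of -0.03 and 0.18, with edgeR adjusted p of 0.928 and 0.313.

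The Rab27 pair had opposite signs, and neither gene was called. Rab27a was at 11.8, 15.8, 14.0, 9.31 and 13.5 CPM in untreated and 12.6, 6.96, 8.79, 8.48 and 10.4 CPM in RG2833 animals, with a log2 fold change of -0.45 and a standard error of 0.18 (adjusted p = 0.141 by edgeR). Rab27b was at 2.40, 3.10, 3.71, 4.84 and 4.23 CPM in untreated and 3.62, 6.07, 4.34, 4.03 and 6.38 CPM in RG2833 animals, with a log2 fold change of 0.41 and a standard error of 0.23 (adjusted p = 0.277 by edgeR). Both genes overlap between groups, and untreated replicate 4 was the lowest untreated animal for Rab27a and the highest for Rab27b. Without that animal, Rab27a passed (edgeR adjusted p = 0.0484), in the fit that called 1556 of all genes. In the other 9 fits that left out an animal Rab27a did not pass, with an adjusted p of up to 0.269.

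Rab proteins of the endoplasmic reticulum and Golgi gave 0 calls among 14 tested genes, where 5.08% of all tested genes were called. There were 6 positive and 8 negative log2 fold changes between -0.25 and 0.27. In this role 3 of the 14 had an unadjusted p under 0.05 (Rab6a, Rab33b and Rab1a), where 24.5% of all tested genes did. DESeq2 called 1 of the 14, Rab6a, and 1286 of all 11791 tested genes. Rab6a and Rab6b direct transport within and out of the Golgi, and Rab6b is the neuronal form. Rab6a was at 861, 661, 789, 940.3 and 775 CPM in untreated and 998, 1006, 944, 1004 and 915 CPM in RG2833 animals. The groups overlapped through untreated replicate 4, which lay above RG2833 replicate 5. The log2 fold change of 0.27 with a standard error of 0.09 missed the threshold (edgeR adjusted p = 0.0929), and 1 of the 10 fits that left out an animal passed, without untreated replicate 4 (edgeR adjusted p = 0.0242). Over those fits the log2 fold change of Rab6a ran from 0.21 to 0.34 and the adjusted p reached 0.184. Without untreated replicate 4, 1556 of all genes were called, against 599 in the main fit. Rab6b was at 1122, 866, 1198, 1050.1 and 1127 CPM in untreated and 1240.1, 1154, 1083, 1186 and 1331 CPM in RG2833 animals, with overlapping ranges and a log2 fold change of 0.16 (95% interval -0.05 to 0.37; edgeR adjusted p = 0.318).

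Rab1a and Rab1b, which move cargo from the endoplasmic reticulum to the Golgi, had log2 fold changes of -0.13 and 0.03. Rab18, a regulator of lipid droplets and of the endoplasmic reticulum, was at 129.5 to 149 CPM in untreated and 117 to 128.6 CPM in RG2833 animals. Its groups did not overlap, but the difference was small (log2 difference -0.13, standard error 0.06, and adjusted p = 0.214 by edgeR). The log2 fold change was 0.02 for Rab2a and -0.17 for Rab2b, which act in transport between the Golgi and the endoplasmic reticulum. Rab33b, a Golgi Rab that binds the autophagy protein Atg16l1, had a log2 fold change of 0.16 (edgeR adjusted p = 0.192). The other 6 genes of this role, Rab30, Rab33a, Rab34, Rab36, Rab39a and Rab43, had edgeR adjusted p between 0.553 and 0.955.

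Of the 7 Rab genes of transport from the Golgi to the plasma membrane, Rab8b was the 1 called, where 5.08% of all tested genes were. In this role 3 (Rab8b, Rab13 and Rab40b) had an unadjusted p under 0.05 (24.5% of all tested genes), and 5 had positive log2 fold changes (49.4% of all tested genes). Rab40b, part of a family that joins ubiquitin ligase complexes, was at 51.0, 82.8, 50.3, 103 and 58.9 CPM in untreated and 92.6, 90.0, 93.7, 88.6 and 90.7 CPM in RG2833 animals. The treated animals lay close together, whereas the untreated animals ranged from below all of them to above all of them. The log2 fold change of 0.39 with a standard error of 0.17 did not pass (edgeR adjusted p = 0.186), and among the fits that left out an animal it passed in 1 of 10, without untreated replicate 4 (edgeR adjusted p = 0.0133). The log2 fold change of Rab40b ran from 0.29 to 0.58 over those fits and the adjusted p reached 0.353. Calls over all genes numbered 1556 without untreated replicate 4, against 599 in the main fit. Rab13, a Rab of junctional and endothelial transport, was at 16.1, 24.8, 17.2, 15.7 and 11.95 CPM in untreated and 14.0, 12.8, 9.41, 14.6 and 13.0 CPM in RG2833 animals. The summed level of 8 endothelial and pericyte markers, 0 of them called, was 302 to 427 CPM in untreated and 271 to 315 CPM in RG2833 animals, and its part in the Rab13 values was not tested. The Rab13 ranges overlap, and the log2 fold change was -0.43 with a standard error of 0.18 (adjusted p = 0.163 by edgeR), and it ran from -0.53 to -0.26 over the 10 fits that left out an animal. Rab10, which serves membrane delivery in growing neurites, had a log2 fold change of -0.02 with a 95% interval from -0.15 to 0.12. Rab12 and Rab40c had log2 fold changes of 0.12 and 0.23, with edgeR adjusted p of 0.538 and 0.306.

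Of the 7 Rab genes of the early endosome, 0 were called by edgeR or DESeq2 and 0 had an unadjusted p under 0.05, with log2 fold changes between -0.19 and 0.08. Among all tested genes, 5.08% were called by edgeR and 24.5% had an unadjusted p under 0.05. Rab5a, Rab5b and Rab5c, the Rab proteins of endosome fusion, had log2 fold changes of 0.08, 0.04 and 0.07. Their 95% intervals lay between -0.10 and 0.27. Rab21 and Rab22a, which sort integrins and recycling cargo, had log2 fold changes of -0.02 and -0.12. Rab31, which links the trans-Golgi network with endosomes, had the smallest adjusted p of this role (log2 fold change -0.19, edgeR adjusted p = 0.243). Rab20 was at 0.53 to 3.55 CPM over the 10 animals (log2 fold change -0.19, edgeR adjusted p = 0.7797).

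Of the 7 tested Rab genes of the recycling endosome, Rab15 was the 1 called, where 5.08% of all tested genes were. In this role 4 (Rab15, Rab4b, Rab35 and Rab11b) had an unadjusted p under 0.05, where 24.5% of all tested genes did. Positive log2 fold changes were found in 6 of the 7, and in 49.4% of all tested genes. Rab4b, a Rab of fast recycling, was at 57.8 to 75.8 CPM in untreated and 74.7 to 81.4 CPM in RG2833 animals (log2 difference 0.25, standard error 0.07, and adjusted p = 0.0734 by edgeR). Its groups overlapped through untreated replicate 1 alone, and DESeq2 called it. Rab35, which acts in fast recycling and neurite growth, was at 69.9 to 92.8 CPM in untreated and 93.6 to 103 CPM in RG2833 animals. Its groups did not overlap, and the adjusted p stayed above the threshold (log2 difference 0.24, standard error 0.08, and adjusted p = 0.0949 by edgeR). Rab11b, the brain-enriched form of the slow recycling Rab, was at 396, 342, 391, 362 and 339 CPM in untreated and 434, 431, 405, 441 and 371 CPM in RG2833 animals. RG2833 replicate 5 lay inside the untreated range, and the log2 fold change was 0.19 with a standard error of 0.08 (adjusted p = 0.157 by edgeR). Rab11a, Rab14 and Rab4a had log2 fold changes of -0.11, 0.06 and 0.02.

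Late endosomal, lysosomal and related genes gave 0 calls among 8 tested by edgeR or DESeq2, with 4 positive and 4 negative log2 fold changes. Among all tested genes, edgeR called 5.08%, and 24.5% had an unadjusted p under 0.05. Rab9a, a Rab of late endosome to Golgi transport, was the 1 of the 8 with an unadjusted p under 0.05 (log2 fold change 0.19, edgeR adjusted p = 0.186), and its relative Rab9b had -0.23 (edgeR adjusted p = 0.2599). Rab7a, which drives maturation of late endosomes and fusion with lysosomes, was at 524, 488, 524, 499 and 467 CPM in untreated and 547, 537, 531, 562 and 507 CPM in RG2833 animals. RG2833 replicate 5 lay within the untreated range, and the log2 fold change of 0.10 had a 95% interval from -0.04 to 0.24 (edgeR adjusted p = 0.354). Rab7l1, now named Rab29 and a partner of the kinase Lrrk2, had a log2 fold change of 0.13 (edgeR adjusted p = 0.476). Rab24, tied to autophagy, had 0.18 (edgeR adjusted p = 0.214), and Rab7b had -0.07.

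Rab32 and Rab38, Rab proteins of lysosome-related organelles, had few counts. Rab32 was at 2.40, 2.60, 0.93, 1.40 and 1.06 CPM in untreated and 1.24, 1.07, 0.93, 0.72 and 1.46 CPM in RG2833 animals, with a log2 fold change of -0.61 and a standard error of 0.34 (adjusted p = 0.285 by edgeR). Rab38 was at 2.52, 1.60, 0.83, 1.58 and 1.48 CPM in untreated and 1.14, 1.52, 1.34, 1.03 and 1.26 CPM in RG2833 animals, with a log2 fold change of -0.33 and a standard error of 0.28 (adjusted p = 0.4999 by edgeR). Both ranges overlap, and untreated replicate 1 was among the 2 highest animals for each gene. At this depth the 95% intervals, from -1.34 to 0.12 for Rab32 and from -0.93 to 0.28 for Rab38, allow changes of either sign.

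The 2 remaining genes act at the cilium, and neither was called, with Rab28 at an unadjusted p under 0.05. Of all tested genes, 5.08% were called and 24.5% had such an unadjusted p. Rab28, a ciliary and photoreceptor Rab, was at 65.5 to 79.5 CPM in untreated and 60.5 to 65.0 CPM in RG2833 animals, with no overlap, a log2 fold change of -0.17 and a standard error of 0.07 (adjusted p = 0.135 by edgeR). Rab23, a negative regulator of hedgehog signalling, had a log2 fold change of 0.11 (edgeR adjusted p = 0.512).

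**Figure D3:**
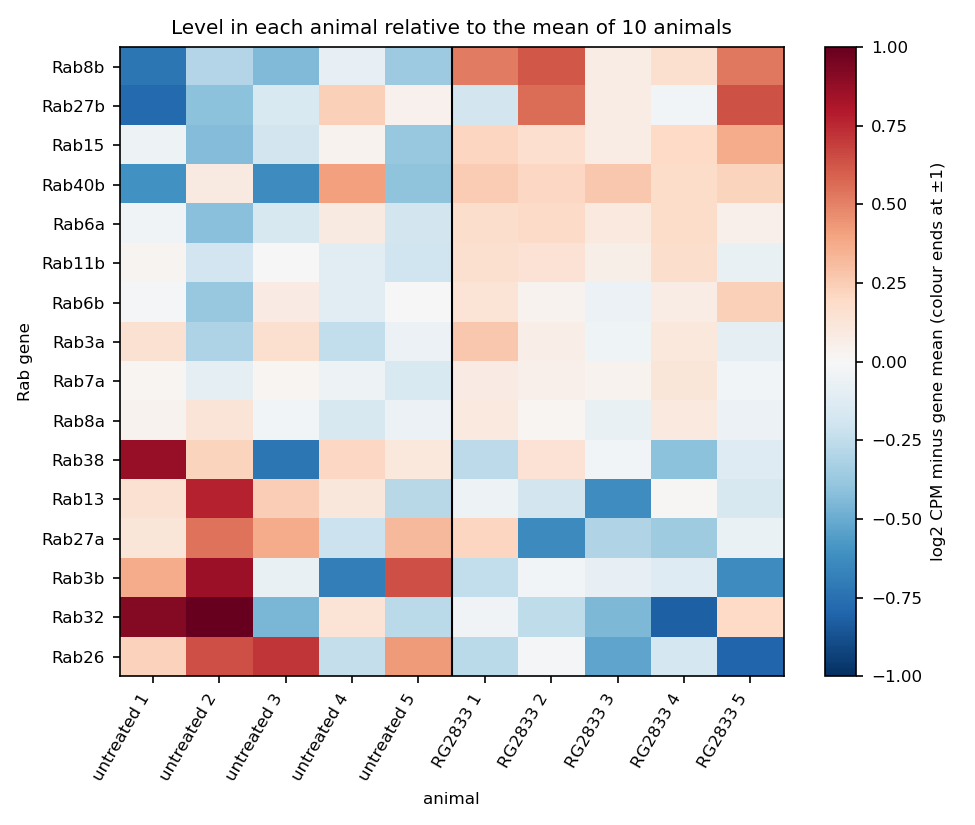
Level of the 16 Rab genes with the largest log2 fold changes, the highest CPM or a call (rows, with Rab8a) in each animal (columns), as log2 CPM minus the mean over all 10 animals, with colour ends at ±1. Untreated replicate 4 has the lowest Rab3b (24.5 CPM) and the highest Rab40b (103 CPM) of the 10 animals, and its Rab26 and Rab6a values lie within the range of the RG2833 animals.

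Untreated replicate 4 was the untreated animal with the most Rab values inside the range of the treated group. Of the 52 Rab genes, 28 had a value in that animal inside the range of the RG2833 animals, against 23, 14, 24 and 20 in untreated replicates 1, 2, 3 and 5. For 26 of the 52 its value was nearer the RG2833 mean than the mean of the other untreated animals. That number was 20, 20, 22 and 24 in untreated replicates 1, 2, 3 and 5. Its summed Rab level (6861 CPM) lay below the RG2833 range of 7137 to 7740.4 CPM. Untreated replicates 1 (7242 CPM) and 3 (7356 CPM) lay inside that range. Untreated replicate 4 also had the highest excitatory neuron marker level of the untreated group (7165 CPM) and its lowest ribosomal RNA share (2.70%). Its summed level of 8 oligodendrocyte markers, 0 of them called, was 12980 CPM, against 18123 CPM in untreated replicate 1, 5918 to 6707 CPM in untreated replicates 2, 3 and 5, and 9268 to 12554 CPM in RG2833 animals. The part of these measures in the Rab values was not tested for the single animal. Without untreated replicate 4, 7 of the 52 Rab genes were called, which were Rab15, Rab26, Rab27a, Rab3b, Rab40b, Rab6a and Rab8b. In the same fit 1556 of all 11849 tested genes were called.

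Rab families were formed by the number in the symbol, so Rab7a and Rab7b, grouped with Rab7l1, gave no ratio here. Within Rab families of exactly 2 tested genes, the ratio of the members in each animal does not depend on library scaling. The 10 ratios were computed after values had been seen, and they are given with no test. The ratio of Rab8b to Rab8a was 0.135, 0.169, 0.171, 0.2396 and 0.185 in untreated and 0.305, 0.344, 0.252, 0.238 and 0.34 in RG2833 animals. The groups met at untreated replicate 4 and RG2833 replicate 4. The ratio of Rab11b to Rab11a was 3.35, 3.41, 3.30, 3.45 and 2.97 in untreated and 4.03, 3.82, 4.29, 4.12 and 3.93 in RG2833 animals. All 5 treated ratios lay above all 5 untreated ratios, although neither gene was called by itself. This was the 1 of the 10 ratios without overlap. RefSeq lists 1 pseudogene named after Rab11a, so the Rab11a counts are uncertain where copies share reads. The log2 ratio of Rab27b to Rab27a differed by 0.88 between group means, with SDs of 0.57 and 0.58. In the other 7 families the difference in log2 ratio was between -0.41 (Rab9b to Rab9a) and 0.25 (Rab33b to Rab33a), and their groups overlapped.

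**Figure D4:**
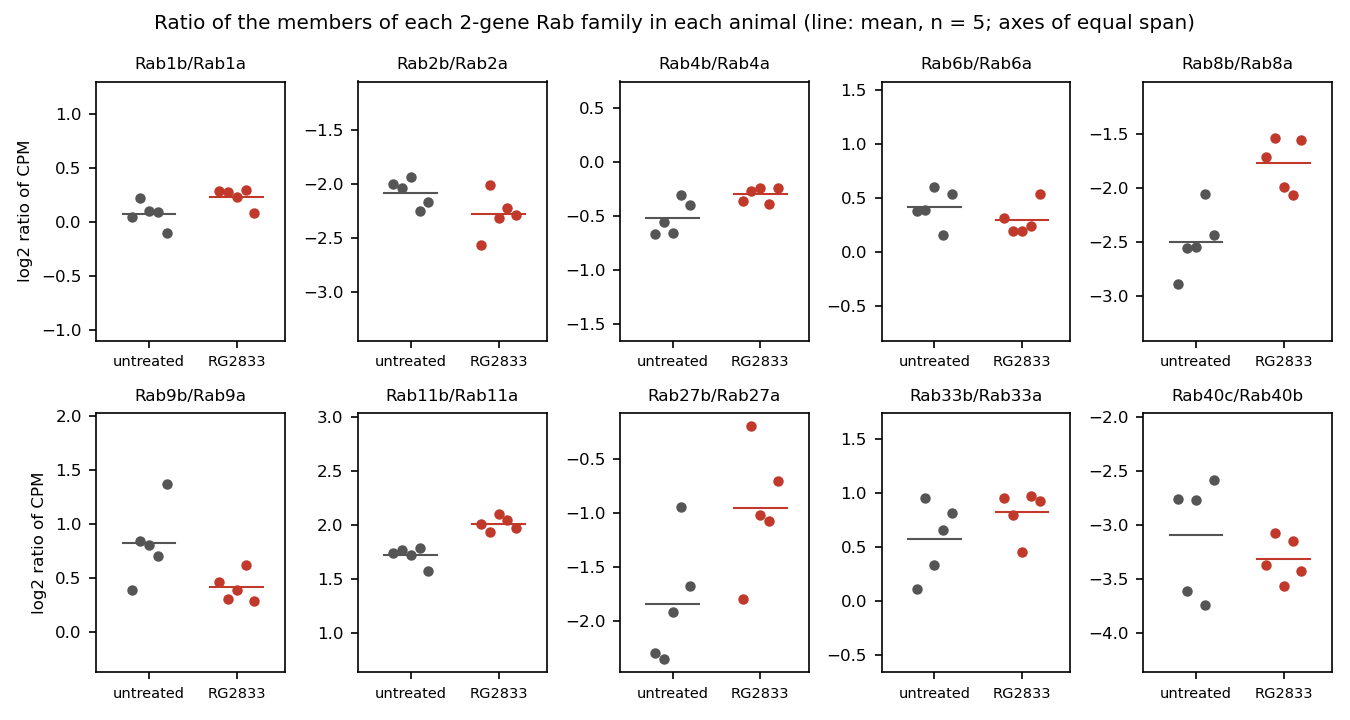
Log2 ratio of CPM between the members of each Rab family with exactly 2 tested genes (families by the number in the symbol), in each animal (points), with group means (lines, n = 5) and axes of equal span. The Rab11b to Rab11a ratios of RG2833 animals (3.82 to 4.29 before taking logs) lie above those of untreated animals (2.97 to 3.45), and the other ratios overlap.

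The proteins that act on Rab GTPases were taken from a list of 131 genes, of which 92 were tested. Of these, 4 were called (4.35%, against 5.08% of all tested genes), 3 higher and 1 lower, and 59 had positive log2 fold changes (64.1%, against 49.4% of all tested genes). With the ribosomal RNA share in the fit 0 of the 92 were called (4 at an unadjusted p under 0.05), and with the excitatory neuron score 0 were (2 at an unadjusted p under 0.05). Those fits called 2 and 3 of all 11791 tested genes. Mon1b, a subunit of the exchange factor family for Rab7, was at 18.8, 21.0, 20.1, 23.0 and 25.0 CPM in untreated and 30.3, 26.5, 30.8, 30.1 and 31.6 CPM in RG2833 animals. No values overlapped, and it rose with a log2 fold change of 0.47 and a standard error of 0.09 (adjusted p = 0.0212 by edgeR). Sbf1, a DENN-domain protein of the myotubularin family, rose from 344 ± 50.5 to 475 ± 44.0 CPM (SD, n = 5), with no overlap, and its log2 fold change was 0.46 with a standard error of 0.10 (adjusted p = 0.0287 by edgeR). Rin1, a Rab5 exchange factor expressed in forebrain neurons, rose from 58.6 ± 13.6 to 84.7 ± 7.46 CPM (SD, n = 5). Untreated replicate 4 and RG2833 replicate 4 were level at 73.3 CPM, and the log2 fold change of Rin1 was 0.53 with a standard error of 0.14 (adjusted p = 0.0489 by edgeR).

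Rabggtb, the catalytic subunit of Rab geranylgeranyl transferase, was the 1 called lower. It was at 77.0, 68.7, 79.9, 65.5 and 78.2 CPM in untreated and 58.3, 67.2, 57.2, 58.8 and 51.8 CPM in RG2833 animals, and untreated replicate 4 and RG2833 replicate 2 overlapped. Rabggtb fell with a log2 fold change of -0.33 and a standard error of 0.08 (adjusted p = 0.0420 by edgeR). By kind, 3 of the 22 tested exchange factors were called and 7 had an unadjusted p under 0.05. Of the 7 genes of prenylation and GDP dissociation inhibition 1 was called, the 1 with an unadjusted p under 0.05. Among all tested genes, 5.08% were called and 24.5% had an unadjusted p under 0.05. The 23 tested GTPase-activating proteins and 40 tested effectors held none of the 4 calls, with 3 and 8 of them at an unadjusted p under 0.05, and no difference between these kinds was tested. The effector with the smallest p was Mical1, a Rab-regulated actin oxidase (log2 fold change 0.38, edgeR adjusted p = 0.0600), and Rph3a, the Rab3 effector rabphilin, had 0.52 with a standard error of 0.16 (adjusted p = 0.0699 by edgeR). At an unadjusted p under 0.05, 19 of the 92 genes passed (20.7%, against 24.5% of all tested genes). Of the 92, 17 passed as higher (18.5%, against 11.8%) and 2 as lower (2.2%, against 12.7%), and this difference in direction was not tested. Over the 10 fits that each left out an animal, between 0 and 9 of the 92 were called, the most without untreated replicate 4. Those fits called between 98 and 1556 of all genes, also the most without that animal.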

How the data were processed

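Left hippocampal RNA of 10 animals was deposited as 2 tables that list the same 17168 gene symbols in different row orders. The authors deposited estimated counts from RSEM and a normalized signal, CPM after TMM scaling, both per the file names. The submitters' processing notes name bcl2fastq 2.17, Bowtie2 2.1.0, RSEM 1.2.15, edgeR and the rn6 build; the gene annotation is not given in the sources used here. Columns were matched to samples by title. Expected counts were rounded, filtered with filterByExpr and tested with edgeR 4.0.16 in R 4.3.3 (quasi-likelihood test, TMM, no covariate), with adjustment over all 11791 tested genes. CPM are TMM-scaled and 95% intervals use the standard error of the fit. The precision of low genes is limited by depth, and intervals cover the spread between animals. Within-group pairs differed by chi-square statistics of 4.74 to 37.9 per degree of freedom, more than sampling noise gives, and pairs between groups were not compared. The test code was tested on simulated data with known changes. Members and lists were chosen with earlier results of these data known. Rab genes with a value given for every animal were those called, the 10 with the largest absolute log2 fold change, the 5 with the highest CPM and relatives of called genes. Regulators named were those called and the next by p; ranges of Rab18, Rab28, Rab35 and Rab4b were added after their values were seen. RefSeq lists 13 pseudogenes named after 7 of these genes (Rab1a, Rab1b, Rab5c, Rab7a, Rab11a, Rab12 and Rab18), so their counts are uncertain where copies share reads, and CPM is not compared between genes because lengths are not used. Promoters are from RefSeq (GRCr8). Alternatives used DESeq2 1.42.0 and limma 3.58.1.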

Additional observations from a re-analysis of the deposited data

Results flagged for a closer look

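Among 104 sets of 5 values (52 Rab genes in 2 groups), 2 held a value set apart from the other 4 by more than 0.71 of the whole range, where chance gives about 5.2. Both concern Rab28. Untreated replicate 3 stood at 79.5 CPM while its group mates ranged from 65.5 to 69.3 CPM (gap over range 0.724). RG2833 replicate 4 stood at 65.0 CPM while its group mates ranged from 60.5 to 61.5 CPM (0.772).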

How the results depend on the processing

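Main counts were 3 of 52 Rab genes, 599 of 11791 genes in all and 4 of 92 regulators and effectors. With DESeq2's Wald test they were 5, 1286 and 7. At an adjusted p under 0.1 they were 6, 1466 and 7. With the replicate block they were 0, 180 and 0, with 12 Rab genes and 15 regulators at an unadjusted p under 0.05. In that fit the log2 fold changes were 0.75 for Rab8b (adjusted p = 0.0537), 0.41 for Rab15 (0.0816) and -0.71 for Rab26 (0.0823). Same-numbered animals are different animals, and their deviations correlated at -0.319 to 0.151 (1 of 10 animals correlated best with its own number), so the numbers gave no pairing. With the ribosomal RNA covariate the counts were 0, 2 and 0 (3 Rab genes and 4 regulators at an unadjusted p under 0.05), the Rab median log2 fold change was 0.0706 in place of 0.0185, and Rab26 reversed to 0.0934. With the excitatory neuron score they were 0, 3 and 0 (6 and 2 at an unadjusted p under 0.05), and the median was -0.012. Without the filter on low counts 2 regulators were called. Leaving out an animal gave 0 to 7 Rab genes (9 to 18 at an unadjusted p under 0.05), 98 to 1556 genes and 0 to 9 regulators. Without both untreated replicates 1 and 4, chosen after seeing the data, the counts were 9, 1379 and 7, and the median was 0.0385. The called Rab genes were the same 3 with DESeq2 size factors, library totals, both other filters and limma trend fits of the signal, and 2 (Rab8b and Rab15) with limma-voom. With library totals 38.3% of all calls were higher, against 47.4%.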
